A study of Mus musculus with 6 samples.

Results

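Fezf2, Bcl11b, Tbr1, Sox5, Ldb2, Ski and Bcl11a are factors of the network that sets subcerebral, corticothalamic or callosal identity in cortical projection neurons, many of them by regulating each other. Ldb2 is included as a cofactor gene enriched in subcerebral neurons. The 7 genes were taken from the deposited count table by symbol, 7 of 23420, and all 7 passed the filter on low counts that left 14618 genes. The libraries were RNA sequencing of neocortex from mouse embryos at embryonic day 18.5, 3 labelled Tshz3 mutant and 3 labelled wild type. Each was made from its own pool of cortices from 3 to 4 embryos out of multiple litters, so 1 value stands for a pool and not for an animal. The sources used here do not give the kind of Tshz3 allele, the strain or the sex of the embryos. Tshz3 itself, a teashirt gene that encodes a zinc finger protein, was at 89.8, 93.1 and 99.2 CPM in the mutant, against 78.7, 83.0 and 89.3 CPM in the wild type. CPM is a count divided by the TMM-scaled library size, and where 3 values are given for a genotype they are those of its libraries 1, 2 and 3. The gene-level count therefore does not check the genotype labels, and the groups are called mutant and wild type as labelled.

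Projection neurons of the neocortex leave the progenitor layer with overlapping programmes and then settle on one. In this network Fezf2 and its downstream factor Bcl11b (also called Ctip2) drive subcerebral identity in layer 5, whose axons reach brainstem and spinal cord. Tbr1 drives corticothalamic identity in layer 6 and represses Fezf2 and Bcl11b, and Sox5 restrains both during the birth of the earliest deep-layer neurons. The corepressor Ski, with its histone deacetylase complex, helps silence Bcl11b in callosal neurons, whose axons cross to the other hemisphere. Bcl11a (Ctip1), a paralogue of Bcl11b, favours corticothalamic and callosal fates over the subcerebral one, and Ldb2 encodes a LIM domain binding cofactor.

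Total counts were 19894144 to 24147810 in the mutant and 18569383 to 21052832 in the wild-type libraries, so each factor had at least 1608 counts in every library. The neocortical excitatory neuron markers, 7 of 7 detected, summed to 4500 to 4810 CPM in mutant and 4360 to 4760 CPM in wild-type libraries. The genotypes were compared by edgeR's quasi-likelihood test, once with no pairing and once with a block for the library number, because same-numbered libraries deviated together. Neither the labels nor the protocols say what a shared number stands for, so the block rests on the data. The fit without pairing was therefore the main one and the paired fit an alternative. A block chosen from the same counts can make the paired p-values too small. The paired fit has few residual degrees of freedom, and both fits are given wherever they differ in call.

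Without pairing, edgeR called 0 of the 7 factors, where it called 0.0752% of all tested genes. The paired fit called 3 of the 7 higher: Fezf2 1.32-fold, Ldb2 1.28-fold and Bcl11b 1.11-fold. None was called lower. That fit called 1.97% of all tested genes higher and 1.49% lower. At an unadjusted p under 0.05 the unpaired fit held 4 of the 7, Fezf2, Ldb2, Bcl11b and Ski, beside 7.09% of all tested genes. DESeq2, also unpaired, called 2 of the 7 higher, Fezf2 and Ldb2, beside 0.417% of all genes it tested. In Fezf2, Ldb2 and Bcl11b every mutant library lay above every wild-type library, which was so for 7.42% of tested genes, and in Ski every mutant library lay below, which was so for 6.09%. In bulk tissue a different number of cells that express a factor and a different amount of its RNA per cell cannot be told apart.

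**Figure D1:**
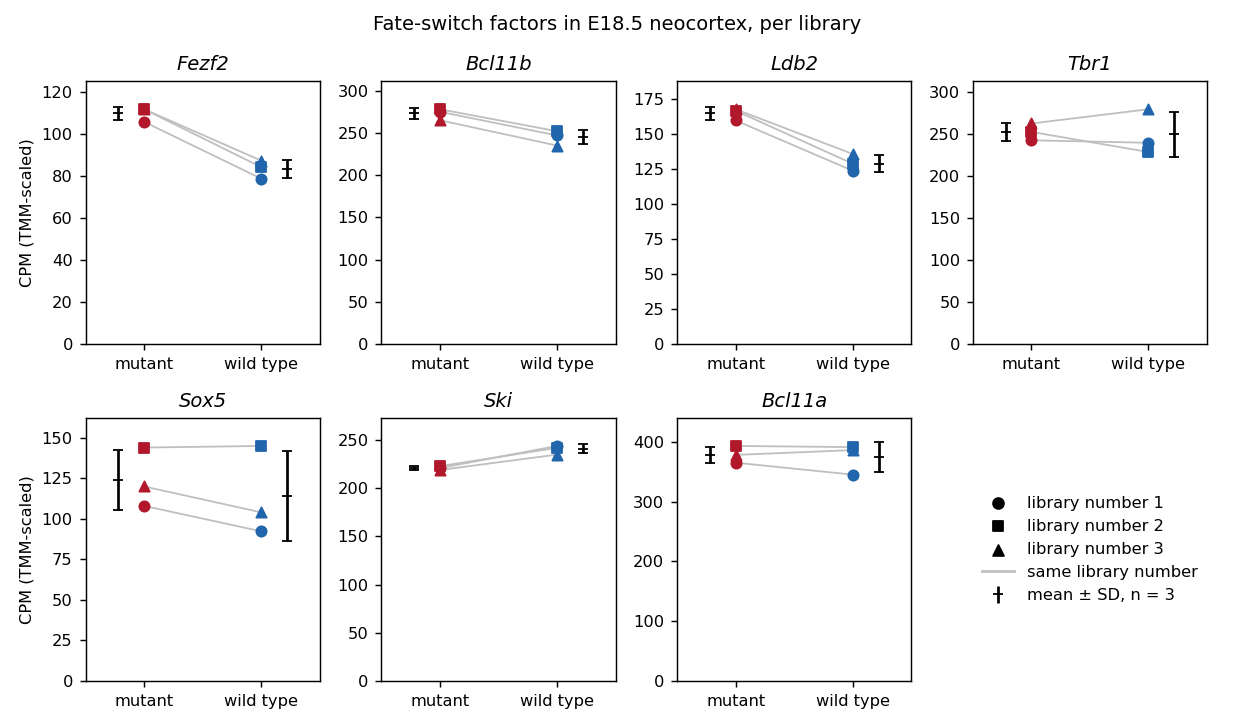
Level of each factor (CPM, TMM-scaled, y axis from 0) in the 3 mutant and 3 wild-type libraries, with grey lines joining libraries of the same number and bars for the mean ± SD. Fezf2, Bcl11b and Ldb2 have mutant points above all wild-type points, Ski has them below, and Tbr1, Sox5 and Bcl11a overlap.

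Fezf2, the zinc finger factor at the head of the subcerebral programme, had 2258, 2682 and 2219 counts in the mutant, against 1664, 1747 and 1608 in the wild type. Scaled, these were 106, 112 and 112 CPM in the mutant and 78.9, 84.4 and 87.5 CPM in the wild type. The lowest mutant library stood well clear of the highest wild-type library, and the fold over the wild-type library of the same number was 1.35, 1.33 and 1.28. The log2 fold change was 0.40 (SE 0.06, 95% interval 0.26 to 0.53, n = 3 per group, edgeR adjusted p = 0.101), or 0.40 with the block (SE 0.04, edgeR adjusted p = 0.000158). Left without any 1 of the 6 libraries, it stayed between 0.35 and 0.43, with unpaired edgeR adjusted p from 0.0741 to 0.624.

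Bcl11b, the zinc finger repressor that carries out much of the Fezf2 programme and is needed for corticospinal axon growth, moved the same way by less. It was at 275, 278 and 265 CPM in the mutant and at 247, 252 and 235 CPM in the wild type. All mutant libraries were higher, and the fold within numbers was 1.11, 1.10 and 1.13. The log2 fold change was 0.15 (SE 0.05, 95% interval 0.03 to 0.28, edgeR adjusted p = 0.549), and 0.15 with the block (SE 0.04, edgeR adjusted p = 0.0478). This call depended on single pairs: the paired adjusted p was 0.146 without pair 1 and 0.452 without pair 3. Whether Fezf2 changed by more than Bcl11b, 0.40 against 0.15 on the log2 scale, was not tested.

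Ldb2, which bridges LIM domain transcription factors into complexes, followed Fezf2 closely. Its levels were 160, 167 and 168 CPM in the mutant, against 124, 129 and 136 CPM in the wild type. The groups did not overlap, and the lowest library of each genotype for Ldb2, number 1, was also the lowest for Fezf2. The log2 fold change was 0.35 (SE 0.06, 95% interval 0.22 to 0.48, edgeR adjusted p = 0.123), and 0.35 with the block (SE 0.04, edgeR adjusted p = 0.000181). In DESeq2 the adjusted p was 0.000389 for Ldb2 and 0.000195 for Fezf2. On GRCm38, 11 non-coding or unclassified genes lie inside Ldb2, 2 of them on the opposite strand, and none shares an exonic base with it.

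**Figure D2:**
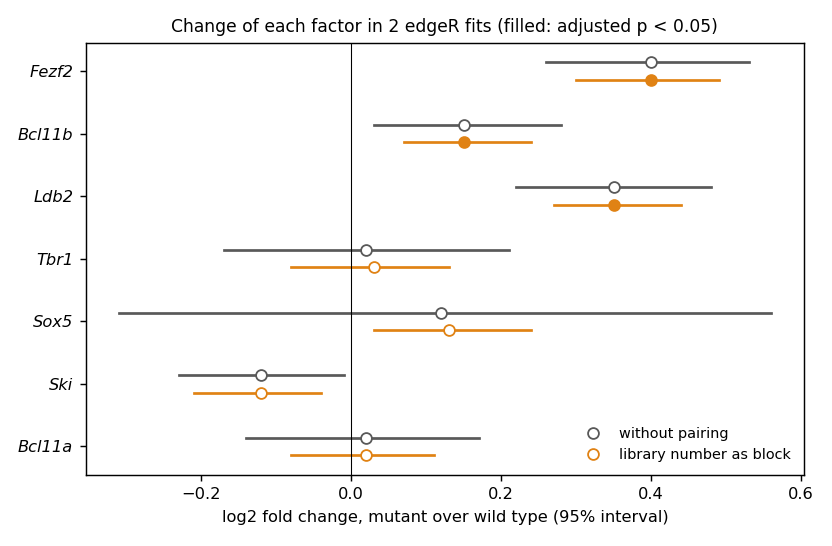
Log2 fold change of each factor, mutant over wild type, with its 95% interval in the edgeR fit without pairing (grey) and with the library number as a block (orange); filled points have an adjusted p under 0.05. Only the paired points of Fezf2, Bcl11b and Ldb2 are filled, and the unpaired interval of Sox5, from −0.31 to 0.56, is the widest of the 7.

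Among the factors that oppose the subcerebral programme, none passed either fit on all 6 libraries. Tbr1, the T-box factor of corticothalamic neurons, was at 243, 253 and 263 CPM in the mutant and at 240, 229 and 280 CPM in the wild type. The mutant values lay inside the wild-type range, and the fold within numbers was 1.01, 1.11 and 0.939. Its log2 fold change was 0.02 with a 95% interval of −0.17 to 0.21 (edgeR adjusted p = 0.989), and 0.03 with the block, from −0.08 to 0.13. The upper bounds lie below the changes of Fezf2 and Ldb2, and a change of the size seen for Bcl11b is inside the unpaired interval.

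Bcl11a, the paralogue of Bcl11b, was at 365, 393 and 378 CPM in the mutant, against 345, 391 and 386 CPM in the wild type. The groups overlapped. The log2 fold change was 0.02, with a 95% interval of −0.14 to 0.17 unpaired and of −0.08 to 0.11 paired (edgeR adjusted p = 0.989 and, paired, 0.887). The antisense gene 4930538E20Rik shares 316 exonic bases with Bcl11a on GRCm38 and has no row of its own, so part of the Bcl11a count could be its reads.

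Sox5, the SoxD factor, varied more between library numbers than between genotypes. It had 108, 144 and 120 CPM in the mutant, against 92.3, 145 and 104 CPM in the wild type. In both genotypes library 2 was the highest and library 1 the lowest, and the groups overlapped throughout. The log2 fold change was 0.12 (SE 0.18, edgeR adjusted p = 0.955), and 0.13 with the block (SE 0.05, edgeR adjusted p = 0.173). Leaving out pair 2, in which mutant and wild type were nearly equal, gave a paired log2 fold change of 0.21 with an adjusted p of 0.00121, so the paired call of Sox5 turns on that pair. The antisense gene Sox5os1 covers 1330 exonic bases of Sox5, which makes this count uncertain too.

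Ski, the corepressor that acts on Bcl11b in callosal neurons, was the only factor of the 7 with all mutant libraries below the wild type. It was at 221, 223 and 219 CPM in the mutant and at 244, 242 and 235 CPM in the wild type. The separation was small but the spread was smaller still, with an SD of 1.95 CPM in mutant and 4.56 CPM in wild-type libraries. The log2 fold change was −0.12 (SE 0.05, 95% interval −0.23 to −0.01, edgeR adjusted p = 0.653), and −0.12 with the block (95% interval −0.21 to −0.04, edgeR adjusted p = 0.119). It passed no test after adjustment.

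On GRCm38, Fezf2 lies on chromosome 14 (12342094 to 12348189, minus strand), Bcl11b on chromosome 12 (107910403 to 108003602, minus) and Ldb2 on chromosome 5 (44472132 to 44799680, minus). Tbr1 lies on chromosome 2 (61802930 to 61814114, plus), Sox5 on chromosome 6 (143828425 to 144781977, minus), Ski on chromosome 4 (155154075 to 155222592, minus) and Bcl11a on chromosome 11 (24078056 to 24174123, plus). These are whole annotated genes, and the counts cover each as 1 unit, so isoforms and untranslated parts cannot be separated. Fezf2, Bcl11b, Tbr1 and Ski overlap no other annotated gene.

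Per kilobase of annotated exon the order of the factors differed between the genotypes. In mutant libraries Ldb2 led at 49.5 ± 1.36 RPKM (SD, n = 3), followed by Tbr1 at 46.1 ± 1.89, Ski at 39.8 ± 0.35, Fezf2 at 36.1 ± 1.02, Bcl11b at 33.6 ± 0.838, Bcl11a at 28.7 ± 1.06 and Sox5 at 8.62 ± 1.27 RPKM. In wild-type libraries Tbr1 led at 45.5 ± 4.96 RPKM, followed by Ski at 43.2 ± 0.819, Ldb2 at 38.8 ± 1.82, Bcl11b at 30.2 ± 1.06, Bcl11a at 28.4 ± 1.91, Fezf2 at 27.4 ± 1.43 and Sox5 at 7.92 ± 1.92 RPKM. Fezf2 thus stood above both Bcl11 genes in every mutant library and within or below their range in the wild type. Neighbours whose libraries overlapped were Ldb2 and Tbr1 in the mutant, and Tbr1 and Ski, Bcl11b and Bcl11a, and Bcl11a and Fezf2 in the wild type. The lengths are all exons that GENCODE annotates on GRCm38, which may not be the annotation the authors counted on, so the order between genes is approximate while the difference between genotypes is not affected.

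The bases before the start sites are shown for the head of the subcerebral programme, its target and their opponent, since Fezf2 and Bcl11b rose together in the paired fit and Tbr1 did not pass. Each is the 250 bases upstream of the RefSeq start site, 5′ to 3′ on the gene's strand, from RefSeq on GRCm38.p6. The windows are chr14:12345866-12346115 (minus strand), chr12:108003415-108003664 (minus) and chr2:61804203-61804452 (plus). Capitals mark the letters TGACCA (a BCL11A motif known from human globin regulation), AACAAT (Sox), GGTGTGA (T-box) and GGGCGG (GC box), on either strand.
Fezf2: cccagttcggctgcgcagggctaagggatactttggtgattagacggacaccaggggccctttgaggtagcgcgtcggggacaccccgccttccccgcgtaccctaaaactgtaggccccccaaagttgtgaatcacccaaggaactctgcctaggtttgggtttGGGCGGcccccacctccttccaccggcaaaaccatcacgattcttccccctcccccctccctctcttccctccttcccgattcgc
Bcl11b: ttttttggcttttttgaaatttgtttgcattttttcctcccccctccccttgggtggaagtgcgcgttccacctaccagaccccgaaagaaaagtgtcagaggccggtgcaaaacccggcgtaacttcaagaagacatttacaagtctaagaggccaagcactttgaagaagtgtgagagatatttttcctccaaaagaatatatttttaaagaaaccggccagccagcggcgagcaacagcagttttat
Tbr1: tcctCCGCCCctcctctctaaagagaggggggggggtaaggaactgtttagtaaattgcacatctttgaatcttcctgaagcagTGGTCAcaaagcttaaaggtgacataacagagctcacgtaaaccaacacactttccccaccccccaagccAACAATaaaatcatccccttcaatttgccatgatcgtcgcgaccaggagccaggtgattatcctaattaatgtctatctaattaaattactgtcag

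The Tbr1 window held the BCL11A letters at −166, the Sox letters at −96 and a GC box at −246, counted from the start site to the first base of the match. The Fezf2 window held 1 GC box, at −85, and the Bcl11b window none of the 4 motifs. Among 32851 promoter windows of the same length, 11.4% held the BCL11A letters, 9.42% the Sox letters, 3.33% the T-box letters and 32.7% a GC box. No matches overlapped each other in these windows. The table of RefSeq promoters gave a window for 6 of the 7 factors, not for Ldb2, and the start sites of Fezf2 and Tbr1 lie 2324 and 1523 bases inside the longest GENCODE gene extent. A match is a string of letters and not a bound site.

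Ratios of 2 factors within a library do not depend on library scaling, and they set a subcerebral factor against one that opposes it. The log2 ratio of Fezf2 to Tbr1 counts was −1.19, −1.18 and −1.24 in the mutant, against −1.60, −1.44 and −1.68 in the wild type. All mutant libraries were higher, by 0.37 on average or 1.29-fold, with an exact two-sided permutation p of 0.1, the smallest that 3 against 3 libraries can give. Adjusted over the 4 ratios tested, p was 0.4 for this ratio and 0.4 to 0.5 for the others, and none can pass a threshold of 0.05 in this design.

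The other ratios overlapped between the genotypes. Bcl11b over Tbr1 averaged 0.11 ± 0.09 in mutant and −0.02 ± 0.21 in wild-type libraries (SD, n = 3 each, exact permutation p = 0.5). Fezf2 over Sox5 averaged −0.16 ± 0.18 in mutant and −0.42 ± 0.31 in wild-type libraries (exact permutation p = 0.3), and was higher in the mutant library of each number, by 0.20, 0.42 and 0.15. Bcl11b over its paralogue Bcl11a averaged −0.47 ± 0.06 in mutant and −0.61 ± 0.12 in wild-type libraries (exact permutation p = 0.3), also higher within each number. The difference of Bcl11b over Tbr1 was 0.13, and 0.01 without wild type 3, and that of Fezf2 over Sox5 was 0.26, and 0.08 without wild type 2.

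**Figure D3:**
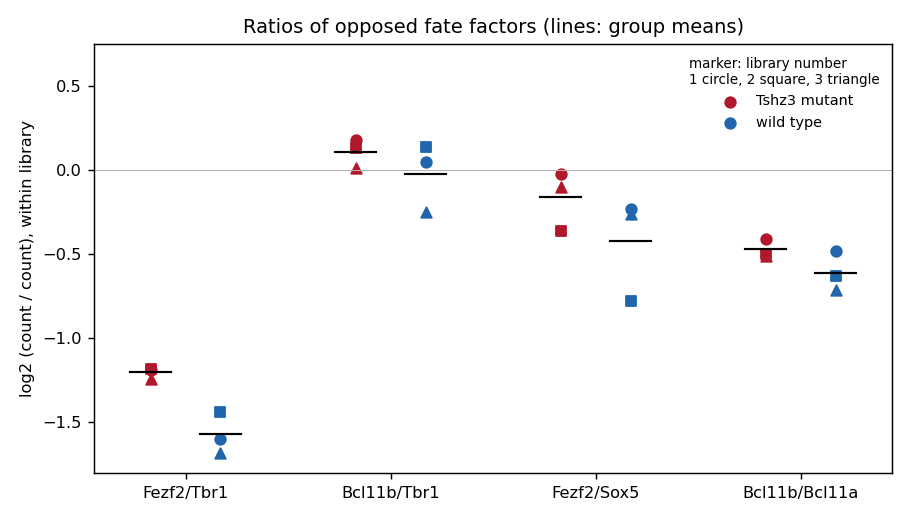
Log2 ratio of raw counts of 2 factors within each library (y axis), for 4 pairs of factors, mutant left and wild type right, with lines at group means and marker shapes for library numbers. Only Fezf2/Tbr1 separates the genotypes, from −1.24 to −1.18 in mutant and −1.68 to −1.44 in wild-type libraries.

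Over the 6 libraries, the genes whose log2 CPM followed Fezf2 most closely were Kirrel3, Ldb2 and 6330403M23Rik, with Pearson r of 0.9997, 0.9985 and 0.9937 among 10602 genes with a mean log2 CPM of at least 3. With 6 points that share genotype and library, 178 genes had r over 0.9, so a high r alone says little. Kirrel3, an immunoglobulin superfamily adhesion gene, was at 96.0, 100 and 101 CPM in the mutant and at 74.8, 79.4 and 81.4 CPM in the wild type. Its log2 fold change was 0.34, with an edgeR adjusted p of 0.138 unpaired and 0.000708 with the block. For Bcl11b the closest genes were Arl6ip6, Tcf3 and Hax1, with r of 0.9973, 0.9929 and 0.9927, and none of these 3 passed either fit, with paired edgeR adjusted p of 0.162, 0.173 and 0.222.

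**Figure D4:**
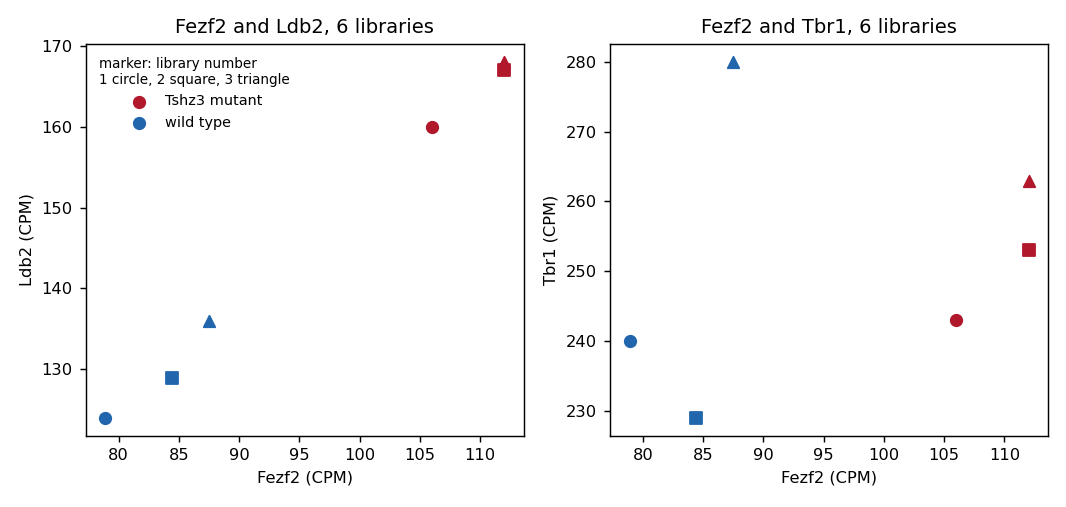
Levels of Ldb2 (left) and Tbr1 (right) against Fezf2, all in CPM, in 3 mutant (red) and 3 wild-type (blue) libraries; axes do not start at 0. Ldb2 climbs with Fezf2 across all 6 libraries, whereas Tbr1 has its highest value, 280 CPM, in a wild-type library with Fezf2 at 87.5 CPM.

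The other genes of the network were taken in 7 lists, and over them 122 tested genes that are no member of the 7 factors. The paired fit called 4 of the 122 higher (3.28%) and 6 lower (4.92%), and the unpaired fit called 0 higher and 1 lower. The closest relatives of the factors showed no call: of 6 paralogues, 5 were expressed above the filter, Eomes, Sox6, Sox13, Ldb1 and Skil, and none passed either fit. Ldb1, the paralogue of Ldb2, was at 298, 283 and 283 CPM in the mutant, against 293, 291 and 272 CPM in the wild type, with a log2 fold change of 0.01. The groups of Ldb1 overlapped throughout, unlike those of Ldb2.

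Of 39 other fate regulators, 3 were higher and 1 lower in the paired fit, and 35 did not pass. The higher ones were Bhlhe22, Pou3f1 and Tshz2. Bhlhe22, a bHLH repressor that acts in corticospinal axon guidance, was at 237, 253 and 261 CPM in the mutant, against 192, 186 and 223 CPM in the wild type. Its log2 fold change was 0.33 with the block (SE 0.05, edgeR adjusted p = 0.00108; 0.391 unpaired), and the groups did not overlap. Pou3f1, a POU domain factor of cortical neurons, was higher by 0.29 in the paired fit (SE 0.05, paired edgeR adjusted p = 0.00547; 0.444 unpaired). Tshz2, a teashirt relative of the mutated gene, was higher by 0.36 (SE 0.07, paired edgeR adjusted p = 0.0156; 0.283 unpaired). Id2, an inhibitor of bHLH factors expressed in layer 5 and upper layers, fell by 0.35 on the log2 scale (SE 0.06, paired edgeR adjusted p = 0.00754; 0.439 unpaired), with 206, 200 and 209 CPM in the mutant against 275, 223 and 291 CPM in the wild type. Neurod6, with the highest level per length of this list, had a paired log2 fold change of 0.09 (edgeR adjusted p = 0.364). The list median was 0.02 in the paired fit, beside −0.01 over all tested genes.

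Cofactors gave no call. Of 15 LIM domain partners and Ssbp subunits of Ldb complexes, none passed either fit, and the list median was −0.03. Every mutant library lay above every wild-type library in 3 of the 15, Lmo3, Lmo4 and Lhx5, and below in 1, Lhx1. Over all tested genes these shares were 7.42% and 6.09%. Lmo3 was at 138, 147 and 165 CPM in the mutant, against 130, 105 and 134 CPM in the wild type. Its paired log2 fold change was 0.29 (edgeR adjusted p = 0.057). Lmo4, a LIM-only protein that marks callosal and some subcerebral neurons and the highest of the list per length, was at 272, 268 and 287 CPM in the mutant, against 258, 252 and 257 CPM in the wild type (paired log2 fold change 0.11, edgeR adjusted p = 0.173). Of 26 corepressor genes of the NuRD, Ski and Groucho families, none passed, and the list median was −0.02. Chd3, a NuRD remodeller and the highest of these per length, had a paired log2 fold change of 0.05 (edgeR adjusted p = 0.566).

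The subcerebral list as a whole did not rise with the factors that drive it. Of 20 subcerebral genes, 0 passed edgeR either way, and the list median was −0.02 in the paired fit and −0.03 in the unpaired fit, although Fezf2 and Bcl11b were higher in the paired one. Pcp4, a calmodulin-binding marker of layer 5 and the highest of the list per length, was at 25.7, 23.5 and 30.0 CPM in the mutant, against 36.0, 25.7 and 31.7 CPM in the wild type (paired edgeR adjusted p = 0.157). DESeq2 called Crym alone, the mu-crystallin gene of corticospinal neurons, which is named after its values were seen. It was at 63.6, 57.0 and 59.1 CPM in the mutant and 33.9, 47.2 and 43.1 CPM in the wild type, with an adjusted p of 0.0145 in DESeq2 and of 0.0786 in the paired edgeR fit. Of the 20 genes, only Crym had all mutant libraries above the wild type, and only S100a10 had all below. S100a10 had a paired log2 fold change of −0.31 (edgeR adjusted p = 0.057) and did not pass DESeq2 (adjusted p = 0.386). Ephb1, an axon guidance receptor gene that Fezf2 is known to activate, had a paired log2 fold change of 0.09 (edgeR adjusted p = 0.287).

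Of 15 corticothalamic genes, 0 were higher and 4 lower in the paired fit, with 11 not past the threshold and a list median of −0.13. The lower genes were Hs3st4, Syt6, Wnt7b and Auts2. Hs3st4, a heparan sulfate sulfotransferase gene of layer 6, was at 49.6, 49.6 and 52.5 CPM in the mutant and 79.0, 79.1 and 94.1 CPM in the wild type, and was the 1 partner gene that also passed unpaired (edgeR adjusted p = 0.0317). Syt6, a synaptotagmin gene of layer 6, fell by 0.23 (SE 0.05, paired edgeR adjusted p = 0.0252; 0.558 unpaired). Wnt7b, a ligand gene of deep-layer neurons, fell by 0.18 (SE 0.05, paired edgeR adjusted p = 0.0398; 0.472 unpaired). Auts2, a known target of Tbr1, fell by 0.18 (SE 0.04, paired edgeR adjusted p = 0.0421; 0.75 unpaired), with overlapping groups. Reln, another Tbr1 target, had a paired log2 fold change of −0.10 (edgeR adjusted p = 0.261), and Tbr1 itself showed no change beyond its spread. By sign alone, 4 of the 15 were up and 11 down in the paired fit, beside 7040 up and 7578 down over all tested genes. Every mutant library lay below every wild-type library in 6 of the 15, Hs3st4, Syt6, Wnt7b, Grin2b, Kcnab1 and Ppp1r1b. That was so for 6.09% of all tested genes, and the opposite order for 7.42%. Nr4a2 was the 1 gene with all mutant libraries above, at 100, 101 and 102 CPM against 86.1, 91.5 and 96.8 CPM in the wild type (paired edgeR adjusted p = 0.111). Ppp1r1b, also of this list, is among the striatal markers too. The list was written with earlier results of these data known, Hs3st4 among them, so its counts are not independent evidence of a direction.

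Of 20 callosal genes, the paired fit called Epha3 higher and Dkk3 lower, with 18 not past the threshold and a list median of 0.03. Epha3, an ephrin receptor gene, was at 43.5, 65.6 and 55.2 CPM in the mutant, against 34.3, 55.2 and 44.1 CPM in the wild type (paired log2 fold change 0.30, SE 0.06, edgeR adjusted p = 0.00962; 0.842 unpaired). Like Sox5, it was lowest in library 1 and highest in library 2 of each genotype. Dkk3, a secreted glycoprotein gene of the Dickkopf family, was at 60.3, 60.1 and 57.4 CPM in the mutant and 72.7, 76.4 and 76.4 CPM in the wild type (paired log2 fold change −0.34, SE 0.05, edgeR adjusted p = 0.00195; 0.123 unpaired; DESeq2 adjusted p = 0.00243). Ptn, a secreted growth factor gene and the highest of the list per length, had a paired log2 fold change of −0.02 (edgeR adjusted p = 0.88).

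**Figure D5:**
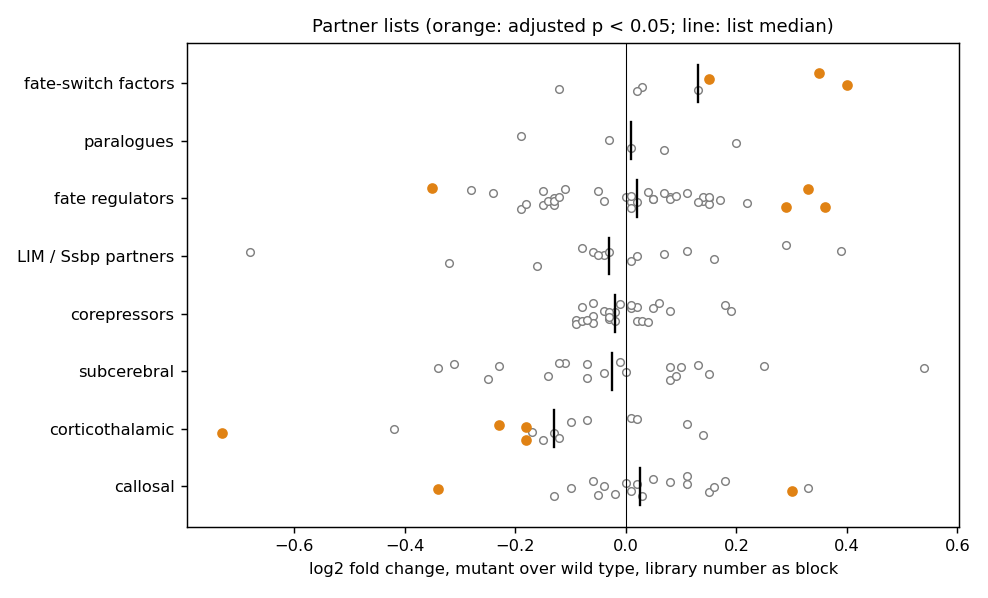
Log2 fold change, mutant over wild type, in the edgeR fit with the library number as a block, for every tested gene of the 7 factors and of 7 partner lists; orange points have an adjusted p under 0.05 and black lines are list medians. The corticothalamic list has its 4 called genes to the left of 0 and the 7 fate-switch factors have their 3 to the right.

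Bcl11b and Bcl11a are also expressed in cortical interneurons, which lie within the neocortex, and in striatum and hippocampus, which border it. The 14 striatal projection neuron markers summed to 538 to 572 CPM in mutant and 522 to 627 CPM in wild-type libraries, and the 12 interneuron markers to 675 to 771 CPM in mutant and 701 to 853 CPM in wild-type libraries. Npy, a neuropeptide gene of the interneuron list, was at 61.0, 59.9 and 66.1 CPM in the mutant, against 79.6, 84.9 and 83.7 CPM in the wild type, and passed DESeq2 (adjusted p = 0.000347) and the paired edgeR fit (adjusted p = 0.000409; 0.109 unpaired). Penk, an opioid peptide gene of the striatal list, overlapped between the genotypes and passed the paired edgeR fit (adjusted p = 0.0277; 0.633 unpaired) but not DESeq2 (adjusted p = 0.474). The 8 hippocampal markers summed to 94.5 to 99.6 CPM in mutant and 100 to 110 CPM in wild-type libraries and did not overlap. Much of that sum was Cnih3, with means of 51.1 CPM in mutant and 55.9 CPM in wild-type libraries and overlapping groups. Mean levels of Wfs1, Lhx9 and Dsp were higher in the mutant, and those of Prox1, Zbtb20, Lef1, Cnih3 and Grp were lower. The 8 thalamic markers overlapped, at 91.1 to 112 CPM in mutant and 83.3 to 108 CPM in wild-type libraries. Much of the thalamic sum was Slc17a6, also an excitatory neuron marker here, with means of 45.2 CPM in mutant and 44.1 CPM in wild-type libraries. In the same list Gbx2 averaged 0.358 and 0.478 CPM and Rora 0.0778 and 0.131 CPM, so the sum says little about thalamic tissue. Vessel, meningeal, microglial and blood markers ran from 315 to 509 CPM in mutant and 268 to 605 CPM in wild-type libraries. Of the red cell genes of that list, the beta globin gene listed as Beta-s was at 174 to 225 CPM in mutant and 136 to 270 CPM in wild-type libraries, Alas2 was at 6.45 to 9.76 CPM in mutant and 5.26 to 11.8 CPM in wild-type libraries, and Hba-a1 was listed at 0 in every library. None of the hippocampal genes passed either fit, and the part these markers play in the changes of the 7 factors was not tested.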

How the data were processed

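The authors deposited raw counts of reads per gene symbol for 6 libraries, whole numbers with no normalization, and column names equal the sample titles. Libraries were made with a stranded kit, per the labels' protocols. CASAVA 1.8.2, TopHat2 2.0.9, Bowtie2 2.1.0, HTSeq 0.5.3p9 and the build mm10 are named, per the submitters' processing notes. The sources used here give neither their settings nor the annotation or strand option, so reads of antisense neighbours may be counted with a gene.

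All rows name a gene, 4515 of 23420 hold no read, and 0 sample columns were left unused. Same-genotype libraries differed by a chi-square of 7.13 to 23.1 per degree of freedom over genes with at least 20 counts, so none was a copy. Nothing ties a pool to single animals, so p-values measure the spread between pools.

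The test was edgeR 4.0.16 under R 4.3.3 (quasi-likelihood, robust, TMM, default expression filter, two-sided, Benjamini-Hochberg over 14618 genes, threshold 0.05), and DESeq2 1.42.0 was an alternative. SE and 95% intervals come from the quasi-likelihood F statistic. Deviations from group means correlated at 0.614, 0.514 and 0.467 for libraries with the same number and at −0.483 to −0.0684 otherwise. All 3 passed the bound of 0.1, so numbers were taken as pairs in the alternative fit. With 3 libraries a group such values could arise without true pairs. RPKM divides CPM by the exon length of GENCODE on GRCm38.

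The 7 factors and all gene lists were chosen with earlier results of these data known. Named are the 7 factors, Tshz3, every list gene called by either edgeR fit, the highest gene of each list per length, and the 3 genes most like Fezf2 and like Bcl11b. Ephb1, Reln and the other list genes named without a call were added after their values were seen, for their known role, direction or level. A gene of the fixed lists and a ratio with it are not reported here. Of the list names, Diaph3 was found as Diap3 and Hbb-bs as Beta-s, and Hbb-bt was not matched.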

Additional observations from a re-analysis of the deposited data

How the results depend on the processing

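The paired fit (library number as replicate block) and DESeq2 changed calls; other scalings and no filter changed no call of the 7 factors. Log2 fold changes were 0.40 for Fezf2 and 0.35 for Ldb2 under DESeq2 and under the block alike, now past the threshold, and 0.15 for Bcl11b with the block. Leaving out 1 library gave 0.35 to 0.43 for Fezf2, 0.32 to 0.39 for Ldb2 and 0.12 to 0.18 for Bcl11b, and leaving out 1 pair with the block gave 0.38 to 0.42, 0.34 to 0.38 and 0.15 to 0.16. Both kinds together gave −0.14 to −0.11 for Ski, −0.01 to 0.34 for Sox5 (0.21, past the threshold, with the block and no pair 2), −0.04 to 0.11 for Tbr1 and −0.04 to 0.05 for Bcl11a. The signs of Sox5, Tbr1 and Bcl11a turned in some of these fits and the cause was not tested.

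Genes called in all were 7 higher and 4 lower unpaired, 288 and 218 with the block, 59 and 43 with DESeq2, 11 and 9 without the filter, and 9 and 8 with upper quartile scaling. Leaving out 1 library gave 1 to 21 higher and 2 to 14 lower, the most without wild type 2, and leaving out 1 pair in the block 35 to 1119 higher and 27 to 755 lower, the most without pair 2 (141 and 154 without pair 1). With 1 pair left out, 1 residual degree of freedom remains. Of the 7 factors 0 were called higher unpaired, 2 with DESeq2, 3 with the block, and, with 1 pair left out in turn, 2 to 4; Sox5 was the fourth, without pair 2. Of the partner genes 0 were higher and 1 lower unpaired, 1 and 2 with DESeq2, 4 and 6 with the block, 0 and 0 to 2 with 1 library left out, and 1 to 13 and 1 to 21 with 1 pair left out.

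Each of the 4 within-library ratios kept its sign under a prior count of 2, the replicate block and each library left out. With the replicate block Fezf2 over Tbr1 was 0.37, with a sign-flip p of 0.25, the smallest that 3 pairs can give. Leaving out 1 library gave 0.32 to 0.44 for it, 0.01 to 0.21 for Bcl11b over Tbr1 (0.01 without wild type 3), 0.08 to 0.36 for Fezf2 over Sox5 (0.08 without wild type 2) and 0.09 to 0.20 for Bcl11b over Bcl11a. Other scalings moved the median of all genes by under 0.1. Counting error was not set against the spread between pools.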
